A study of Mus musculus with 4 samples.

Results

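Secondary and tertiary granule genes of neutrophils were followed in transformed mouse blood progenitors that carry either a form of the MLL-ENL fusion without the YEATS domain or the MLL-ENL fusion itself. The 10 genes, of 55426 in the deposited tables, were taken by symbol. Ltf, Camp, Ngp, Lcn2, Mmp8, Chil3 and Cd177 formed the specific granule group of 7, and Mmp9, Padi4 and Lrg1 the gelatinase and late group of 3. All 10 passed the filter on low counts, Mmp8 only through the group in which it was high.

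Neutrophils build their granules in succession as they mature. Myeloperoxidase and elastase enter the primary granules of promyelocytes, lactoferrin and lipocalin enter the secondary or specific granules of myelocytes, and gelatinase enters the tertiary granules of band cells. Transcription factors of the C/EBP family, above all C/EBP-epsilon, switch on the specific granule genes.

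The cells were lineage-negative bone marrow cells of the mouse, grown in IMEM with serum, and all of them carried an MLL fusion. An MLL fusion joins the amino-terminal part of the histone methyltransferase MLL to a partner, here ENL, which reads acylated histone tails through its YEATS domain. MLL-ENL dYEATS cells carried a fusion in which ENL is given as residues 372 to 559, without the YEATS domain. MLL-ENL cells carried the fusion under its plain name, and the sources used here do not state its ENL residues. Poly(A)-selected RNA of 2 libraries of each group was sequenced. The design text calls these libraries technical replicates, so SD, SE and adjusted p-values cover only the spread among libraries that may stem from 1 line a group, and line and fusion cannot be told apart.

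Depth was even, with totals of 28814798 and 28177480 expected counts in the MLL-ENL dYEATS libraries and 28121268 and 27812855 in the MLL-ENL libraries. MLL-ENL replicate 1 stood apart by a ribosomal RNA gene (CT010467.1) that took 9.25% of its counts, against 4.94% to 5.46% in the other libraries, so fold changes of the 10 genes were also computed without it. The blood origin was plain in the leucocyte gene Ptprc, at 274 ± 3.68 CPM in MLL-ENL dYEATS and 229 ± 50.7 CPM in MLL-ENL cells (SD, n = 2 each). CPM are counts divided by the scaled library size, so that libraries can be compared. Kit, a receptor of early progenitors, averaged 3.27 CPM in MLL-ENL dYEATS and 58.7 CPM in MLL-ENL cells. This progenitor marker, which the labels do not name, was thus low in MLL-ENL dYEATS cells (edgeR adjusted p = 0.000681). Of 8 markers of mature neutrophils, Fpr1 was at 0 throughout and Ly6g, a surface protein of maturing neutrophils, averaged 0.552 CPM in MLL-ENL dYEATS and 1.00 CPM in MLL-ENL cells (edgeR adjusted p = 0.0978). The chemokine receptor Cxcr2 was the 1 marker called of 3 tested, at 2.18 and 2.37 CPM in MLL-ENL dYEATS libraries, against 0.448 and 0.711 CPM in MLL-ENL libraries (log2 fold change 1.96, edgeR adjusted p = 0.0117). Over all genes tested, 7.04% were called higher and 9.84% lower. Summed over the 8 markers, the level was 34.1 to 35.9 CPM in MLL-ENL dYEATS and 32.8 to 33.5 CPM in MLL-ENL libraries, most of it from Csf3r, the receptor of granulocyte colony-stimulating factor.

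Later neutrophil genes did not move as a block when MLL-ENL dYEATS cells were set against MLL-ENL cells. Lcn2, Mmp8, Chil3, Mmp9 and Padi4 rose, Ngp, Cd177 and Lrg1 fell, and Ltf and Camp were not called. That is 5 genes higher and 3 lower of 10 (edgeR's quasi-likelihood test, Benjamini-Hochberg adjusted p under 0.05 over 13245 genes), where 7.04% of all genes tested were called higher and 9.84% lower. Without MLL-ENL replicate 1 or 2, members called were 5 higher and 4 lower in both fits, where 28.3% and 34.6% of all genes were called higher and 28.9% and 34.0% lower, so that the share of members called lower was then near that of all genes. The median log2 fold change, MLL-ENL dYEATS minus MLL-ENL, was 0.64 over the 10 genes and -0.01 over all genes tested. The 5 higher genes include Mmp8, which passed the filter on low counts only through the group in which it was high. The genes were picked with earlier results of these data known, so the count and the median are given as a description. In these bulk samples fewer cells that express a gene and less RNA per cell cannot be told apart.

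**Figure D1:**
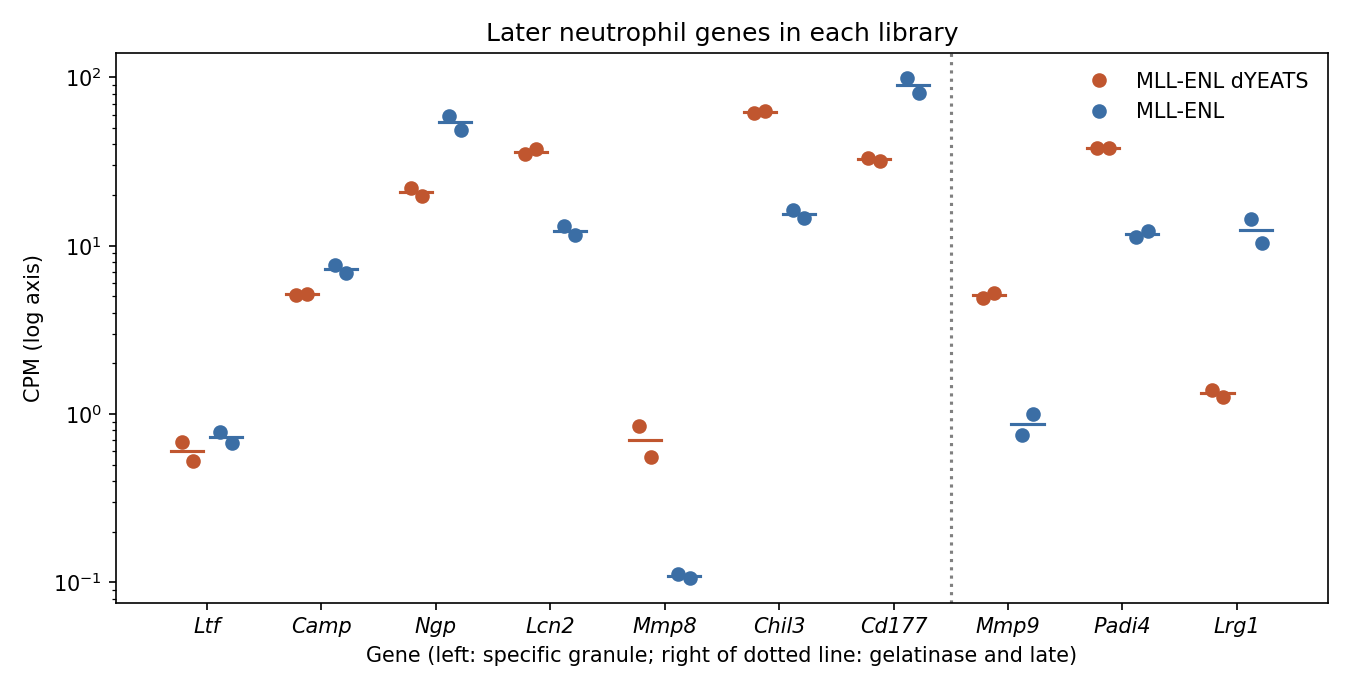
CPM on a log axis of the 10 genes in the 2 MLL-ENL dYEATS libraries (left in each pair) and the 2 MLL-ENL libraries (right in each pair), with points for libraries and bars for group means. The groups overlap for Ltf, whose 4 values lie between 0.523 and 0.784 CPM. With 2 libraries a group, separation of the other genes is weak evidence, and its share over all genes was not counted.

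Among the specific granule genes, Ltf encodes lactoferrin, which withholds iron from microbes, and its transcript was barely present. Its MLL-ENL dYEATS libraries held 20 and 15 counts, against 21 and 19 counts in the MLL-ENL libraries. That is 0.681 and 0.523 CPM in MLL-ENL dYEATS against 0.784 and 0.676 CPM in MLL-ENL, and the ranges overlap. The test did not call it (log2 fold change -0.27 ± 0.31 SE, adjusted p = 0.59). The ratio of counts was 0.828 with a 95% interval of 0.511 to 1.34 from counting error only, so a moderate change in either direction was not detectable at this depth.

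Camp encodes the cathelicidin precursor of a membrane-lysing peptide. Its values were 5.11 and 5.20 CPM in MLL-ENL dYEATS libraries, against 7.73 and 6.86 CPM in MLL-ENL libraries. Both MLL-ENL dYEATS values lay lower, but the difference missed the threshold (log2 fold change -0.50 ± 0.16 SE, adjusted p = 0.0924). It was called lower without MLL-ENL replicate 1 (adjusted p = 0.00803) and without MLL-ENL replicate 2 (adjusted p = 0.000478), fits of the same test in which the spread rests on the close MLL-ENL dYEATS pair.

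Ngp encodes neutrophilic granule protein, a relative of the cathelicidins and cystatins that is named for its place in mouse granules. It had 22.1 and 19.8 CPM in MLL-ENL dYEATS libraries, against 59.0 and 49.1 CPM in MLL-ENL libraries. Both MLL-ENL dYEATS libraries were far below both MLL-ENL libraries, and the gene fell by 1.37 on the log2 scale (SE 0.15, edgeR adjusted p = 0.00361). Ltf, Camp and Ngp lie within about a megabase of each other on chromosome 9 (GRCm38), with Camp at 109847379 to 109849617, Ngp at 110419747 to 110423012 and Ltf at 111019271 to 111042767.

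Lcn2 encodes lipocalin 2, which binds the iron carriers of bacteria. Its transcript (chromosome 2, 32384633 to 32388252) stood at 34.9 and 37.4 CPM in MLL-ENL dYEATS libraries, against 13.0 and 11.6 CPM in MLL-ENL libraries. It was higher by 1.55 ± 0.13 SE on the log2 scale (edgeR adjusted p = 0.00158), a fold of 2.94. Ngp and Lcn2, products of the same granule, thus changed in opposite directions.

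Chil3 encodes Ym1, a chitinase-like lectin without enzyme activity that mouse neutrophils and macrophages secrete (chromosome 3, 106147554 to 106167564). Its level was 61.1 and 63.0 CPM in MLL-ENL dYEATS libraries, against 16.3 and 14.7 CPM in MLL-ENL libraries, and the groups were well apart. The log2 fold change was 2.00 ± 0.12 SE (edgeR adjusted p = 0.00065), the smallest p of the 10 genes. Its near copies Chil4, Chil5 and Chil6 were at 0 counts in all 4 libraries. The sources used here do not say how reads that match several copies were split.

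Mmp8 encodes neutrophil collagenase, a protease of the specific granule (chromosome 9, 7558456 to 7568485), and was the lowest of the 10 genes per length. It had 25 and 16 counts in MLL-ENL dYEATS libraries, against 3 and 3 in MLL-ENL libraries. The MLL-ENL libraries were therefore at the floor of 3 counts, about 0.11 CPM. The ratio of counts was 6.47 with a 95% counting interval of 2.73 to 18.6, and edgeR gave a log2 fold change of 2.64 ± 0.48 SE (adjusted p = 0.0197). With limma on log2(FPKM + 1), where such low values are pulled together, it was 0.35 and the call ended (adjusted p = 0.0576).

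Cd177 encodes a surface glycoprotein of neutrophils that in humans is stored in specific granules and holds proteinase 3 (Prtn3) on the membrane. It was the most counted of the 10 genes in MLL-ENL cells (chromosome 7, 24743983 to 24760311). Values were 33.5 and 31.9 CPM in MLL-ENL dYEATS libraries, against 99.3 and 81.0 CPM in MLL-ENL libraries. The drop of 1.46 ± 0.14 SE on the log2 scale (edgeR, adjusted p = 0.00269) was close to that of Ngp in size. Prtn3 itself averaged 818 CPM in MLL-ENL dYEATS and 1386 CPM in MLL-ENL cells (log2 fold change -0.76, adjusted p = 0.0214), but this call was lost when either MLL-ENL dYEATS library was left out (edgeR adjusted p = 0.198 without replicate 1 and 0.27 without replicate 2).

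The gelatinase and late genes split as the specific granule genes did. Mmp9 encodes gelatinase B, the protease that gives tertiary granules their other name (chromosome 2, 164940780 to 164955850). It had 143 and 151 counts in MLL-ENL dYEATS libraries, against 20 and 28 counts in MLL-ENL libraries. That is 4.87 and 5.27 CPM in MLL-ENL dYEATS against 0.747 and 0.996 CPM in MLL-ENL, with no overlap, and a log2 fold change of 2.53 ± 0.23 SE (edgeR adjusted p = 0.00234). With limma on log2(FPKM + 1), which understates changes at low levels, it was 0.99 and still called (adjusted p = 0.00813).

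Padi4 encodes a peptidylarginine deiminase that citrullinates histones when neutrophils cast out their chromatin (chromosome 4, 140745865 to 140774236). It stood at 38.1 and 38.3 CPM in MLL-ENL dYEATS libraries, against 11.3 and 12.2 CPM in MLL-ENL libraries. The libraries of each group were close together and the log2 fold change was 1.70 ± 0.12 SE (edgeR adjusted p = 0.000986). The neighbouring Padi3 averaged 0.414 CPM in MLL-ENL dYEATS and 0.180 CPM in MLL-ENL cells and was not called (edgeR adjusted p = 0.166).

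Lrg1 encodes a secreted leucine-rich glycoprotein that human neutrophils store in granules and the liver releases in inflammation (chromosome 17, 56119678 to 56122001). It had 41 and 36 counts in MLL-ENL dYEATS libraries, against 387 and 291 counts in MLL-ENL libraries. That is 1.40 and 1.26 CPM in MLL-ENL dYEATS against 14.5 and 10.4 CPM in MLL-ENL. Although the MLL-ENL libraries differed by a good margin, the MLL-ENL dYEATS libraries lay far below both. Lrg1 fell by 3.22 on the log2 scale (SE 0.24, edgeR adjusted p = 0.0013), a 9.31-fold lower level. This was the largest fitted change of the 10 genes, although the counting interval of Mmp8 given above includes a change of that size. Without MLL-ENL replicate 1, the higher of the pair, the log2 fold change was -2.96.

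**Figure D2:**
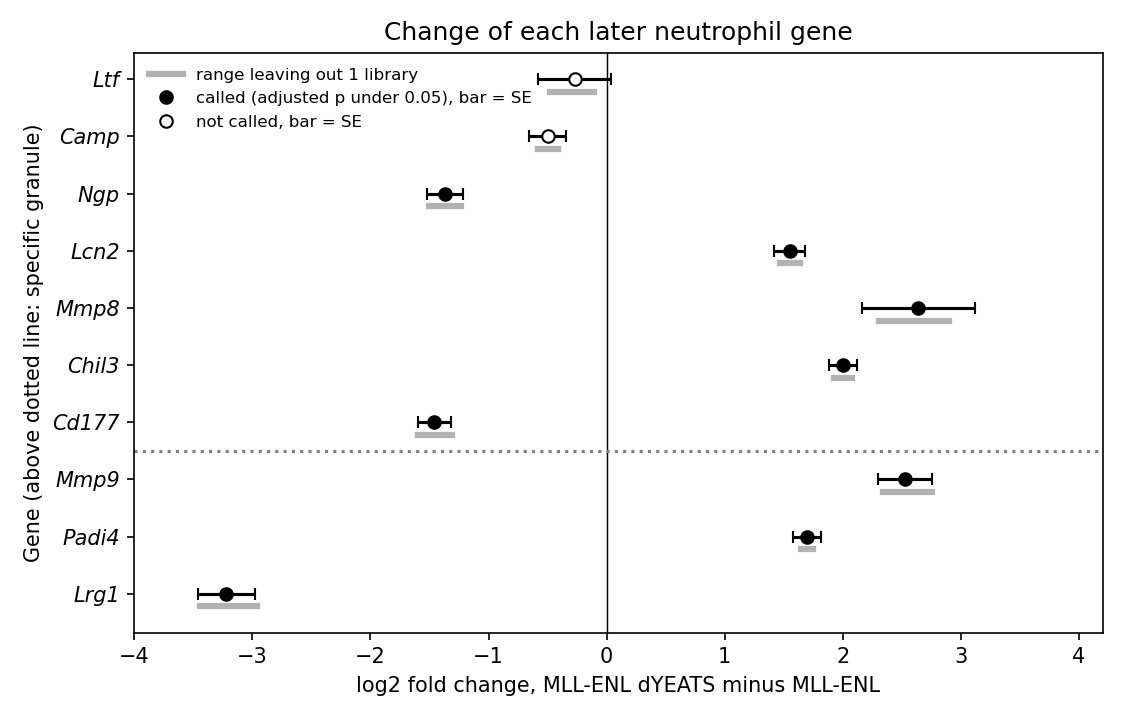
Log2 fold change of each gene, MLL-ENL dYEATS minus MLL-ENL, with SE from edgeR (filled points called, open points not called) and grey bars for the range over fits that leave out 1 library. Lrg1 lies lowest at -3.22 and Mmp8 highest at 2.64, and no bar of a called gene reaches 0.

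No exon of the 10 genes overlaps an exon of another gene in GENCODE M21. Set side by side, 3 of 7 specific granule genes rose, 2 fell and 2 were not called, and of the 3 gelatinase and late genes 2 rose and 1 fell. The median log2 fold change was -0.27 for the specific granule genes, with a range from -1.46 to 2.64, and 1.70 for the gelatinase and late genes, with a range from -3.22 to 2.53. Both groups thus held called genes in both directions, where 7.04% of all genes tested were called higher and 9.84% lower. Mmp8, among the specific granule genes that rose, passed the filter on low counts only through the group in which it was high. With so few genes the difference between the groups was not tested.

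Levels were compared between genes per length, in the FPKM that the authors deposited. In MLL-ENL dYEATS cells the order was Lcn2 (58.9 FPKM), Chil3 (51.0), Ngp (22.8), Padi4 (20.6), Cd177 (14.1), Camp (11.2), Mmp9 (1.91), Lrg1 (1.21), Ltf (0.575) and Mmp8 (0.34), as means of 2 libraries. No 2 neighbours in that order overlapped between libraries, although Ltf (0.72 and 0.43 FPKM) and Mmp8 (0.41 and 0.27 FPKM) came close. In MLL-ENL cells it was Ngp (56.6 FPKM), Cd177 (36.8), Lcn2 (19.3), Camp (15.2), Chil3 (12.2), Lrg1 (10.8), Padi4 (5.89), Ltf (0.695), Mmp9 (0.465) and Mmp8 (0.05). There Chil3 and Lrg1 overlapped, as did Ltf and Mmp9.

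The make-up of these transcripts differed more than their sum. Summed over the 10 genes, the level was 183 and 183 FPKM in the MLL-ENL dYEATS libraries and 165 and 151 FPKM in the MLL-ENL libraries. In CPM the sums were 202.6 and 203.2 in MLL-ENL dYEATS libraries, against 222.8 and 187.5 in MLL-ENL libraries, and the groups overlapped. Ngp and Cd177 made up 13.2% and 8.13% of the FPKM sum in MLL-ENL dYEATS replicate 1 and 11.8% and 7.33% in replicate 2. In MLL-ENL replicate 1 they made up 36.1% and 23.5%, and in replicate 2 35.5% and 23.0%. Lcn2 held 31.2% and 33.2% of the sum in the MLL-ENL dYEATS libraries, against 11.9% and 12.6% in the MLL-ENL libraries. For Chil3 the shares were 27.6% and 28.3% in the MLL-ENL dYEATS libraries, against 7.47% and 7.92% in the MLL-ENL libraries. The gelatinase and late genes together gave 13.2% and 12.8% in MLL-ENL dYEATS libraries and 11.1% and 10.6% in MLL-ENL libraries. Most of that was Padi4 in MLL-ENL dYEATS cells and Lrg1 in MLL-ENL cells.

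**Figure D3:**
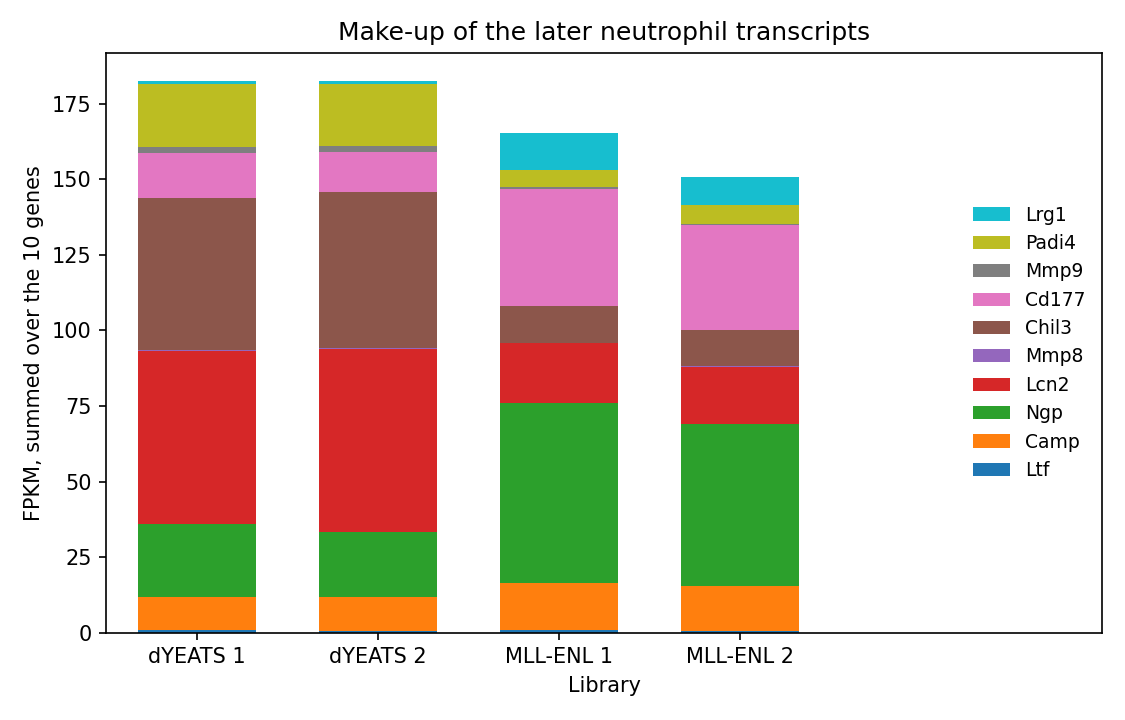
Stacked bars of the FPKM of the 10 genes in the 2 MLL-ENL dYEATS libraries (left) and the 2 MLL-ENL libraries (right). Totals lie between 151 and 183 FPKM, with Lcn2 and Chil3 the widest bands on the left and Ngp and Cd177 the widest on the right.

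Sequence in front of the start sites was read for 9 members from RefSeq (GRCm38.p6). The pattern TTNNGNAA, a loose form of the site bound by C/EBP factors, was searched on both strands in the 250 bases before each start. It was found in 6 of 9 members, and in 36.9% of 27018 genes and 28.7% of the 9541 of these that were tested. Ngp and Chil3 had 3 matches each, Ltf and Mmp8 2 each, Lcn2 and Cd177 1 each, and Camp, Padi4 and Lrg1 none. The window of Lcn2 lies wholly within the gene as GENCODE annotates it, so its match is not in front of the GENCODE start. For Camp only 89 bases of the window lie before the GENCODE gene. Those of Ltf, Ngp, Padi4 and Lrg1 reach into the gene by less. GAGGAA, a core of sites for the myeloid factor PU.1, stood in 4 of 9 members and in 23.1% of all genes. Genes that rose (Chil3, Mmp8, Lcn2) and genes that fell (Ngp, Cd177) both held the C/EBP pattern, and a match is no proof of binding. A pair of genes that rose and a pair that fell are shown to let these matches be compared, 5′ to 3′ on the strand of the gene, with matches to TTNNGNAA on either strand in capitals and bases that GENCODE annotates as transcribed left out.
Chil3 (higher), chr3:106167565-106167814, minus strand: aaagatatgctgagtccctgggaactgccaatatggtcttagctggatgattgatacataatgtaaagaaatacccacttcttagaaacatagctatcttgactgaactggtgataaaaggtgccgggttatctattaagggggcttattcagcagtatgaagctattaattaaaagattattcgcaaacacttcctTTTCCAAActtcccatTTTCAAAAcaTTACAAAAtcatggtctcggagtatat
Mmp8 (higher), chr9:7558179-7558428, plus strand: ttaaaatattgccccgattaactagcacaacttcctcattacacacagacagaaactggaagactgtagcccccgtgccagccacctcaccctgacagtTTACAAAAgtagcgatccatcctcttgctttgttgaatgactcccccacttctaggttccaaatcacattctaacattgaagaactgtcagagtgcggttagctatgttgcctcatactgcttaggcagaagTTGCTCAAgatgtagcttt
Ngp (lower), chr9:110419558-110419746, plus strand: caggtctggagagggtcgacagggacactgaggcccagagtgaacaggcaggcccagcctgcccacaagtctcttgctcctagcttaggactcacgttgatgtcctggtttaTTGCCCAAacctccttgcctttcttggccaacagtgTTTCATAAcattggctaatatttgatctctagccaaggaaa
Cd177 (lower), chr7:24760312-24760561, minus strand: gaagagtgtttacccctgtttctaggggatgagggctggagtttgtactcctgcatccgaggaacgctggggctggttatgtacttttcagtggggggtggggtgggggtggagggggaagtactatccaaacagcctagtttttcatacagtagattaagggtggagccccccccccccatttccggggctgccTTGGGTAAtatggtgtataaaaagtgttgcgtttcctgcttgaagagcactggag
The matches of Chil3 begin 53, 37 and 27 bases before the RefSeq start, in an A- and T-rich stretch. Those of Ngp begin 138, 102 and 11 bases before it, and the last falls in the stretch left out. In Mmp8 they begin 151 and 19 bases before the start, and in Cd177 55 bases before it.

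The nearest tested gene on each side of the 10 members gave 20 neighbours, of which 2 were called higher and 0 lower by edgeR, near the share of 16.9% called in either direction over all genes. Als2cl, before Ltf, had a log2 fold change of 2.00 (edgeR adjusted p = 0.0119), and Slc12a5, after Mmp9, one of 1.44 (0.00582). Slc12a5 was not called with limma on log2(FPKM + 0.1) (adjusted p = 0.0503). Klhl18, only 2.91 kb from Ngp, averaged 21.7 CPM in MLL-ENL dYEATS and 20.6 CPM in MLL-ENL cells. Sema6b, 1.08 kb from Lrg1, averaged 39.7 CPM in MLL-ENL dYEATS and 54.8 CPM in MLL-ENL cells (edgeR adjusted p = 0.062). Without MLL-ENL replicate 1 or 2 its log2 fold change was -0.36 or -0.56. Sema6b was called lower in both of these fits, whose spread rests on the close MLL-ENL dYEATS pair.

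Other genes of granules and neutrophil maturation moved both ways. Of 30 listed genes 26 were tested, of which 6 rose, 2 fell and 18 were not called. For comparison, 7.04% of all genes tested were called higher and 9.84% lower. The median log2 fold change was 0.20, also when Fpr2, at 0 in MLL-ENL libraries, is set at its floor. Fpr2 is among the 6, but passed the filter on low counts only through MLL-ENL dYEATS cells, in which it was high. The metalloprotease Adam8 rose most among those at 1 CPM or more, with 40.8 CPM in MLL-ENL dYEATS and 1.48 CPM in MLL-ENL cells (log2 fold change 4.77). Slc11a1, a metal transporter of phagosomes and of gelatinase granules in humans, averaged 3.95 CPM in MLL-ENL dYEATS and 0.706 CPM in MLL-ENL cells. Anxa1, a lipid-binding protein that human neutrophils keep in gelatinase granules, averaged 24.1 CPM in MLL-ENL dYEATS and 5.17 CPM in MLL-ENL cells. The call of Slc11a1 ended with limma on log2(FPKM + 1) and log2(FPKM + 0.1) (adjusted p = 0.0614 and 0.102). Ncf4, a cytosolic subunit of the NADPH oxidase, fell by 0.79 on the log2 scale. Its call ended when MLL-ENL dYEATS replicate 1 (edgeR adjusted p = 0.108) or replicate 2 (0.181) was left out.

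Olfm4, named after its values were seen, encodes a specific granule protein of a subset of neutrophils. It had 126 and 130 CPM in MLL-ENL dYEATS libraries, against 43.3 and 45.2 CPM in MLL-ENL libraries (edgeR adjusted p = 0.00106). Fcnb, Hp, Pglyrp1 and Slpi, which are also granule proteins, were not called (edgeR adjusted p = 0.188, 0.318, 0.293 and 0.077).

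Primary granule genes fell where they were called. Of 12 tested 7 fell and 0 rose, led by Nkg7, Ms4a3 and Mpo (log2 fold changes of -3.58, -3.52 and -3.12), with a median of -0.84. Among all genes tested 9.84% were called lower and 7.04% higher. Nkg7 passed the filter on low counts only through MLL-ENL cells, in which it was high. Prtn3 is 1 of the 7.

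Transcription factors that act on granule genes included 1 gene called higher and 4 called lower of 13 tested. Over all genes tested the shares were 7.04% higher and 9.84% lower. Cebpa, which commits progenitors to granulocytes, fell by 1.73 on the log2 scale (edgeR adjusted p = 0.00065), Cux1, a repressor of late granule genes in cultured myeloid cells, by 1.25 (0.0082), and Runx1 by 1.08 (0.00429). Klf5, named with its values known, had a log2 fold change of -0.86, and its call was lost with limma at either pseudocount and when either MLL-ENL dYEATS library was left out (adjusted p from 0.0587 to 0.105). Spi1, which encodes PU.1, had a log2 fold change of 0.46 (adjusted p = 0.0404). Its call ended in 6 alternatives, among them the replicate block (edgeR adjusted p = 0.0532). Cebpe, the factor most closely tied to specific granules, averaged 59.2 CPM in MLL-ENL dYEATS and 44.3 CPM in MLL-ENL cells and was not called (edgeR adjusted p = 0.155). Leaving out MLL-ENL replicate 1 or 2 put its log2 fold change at 0.65 and 0.22. Cebpe was called higher in both of these fits, whose spread rests on the close MLL-ENL dYEATS pair. Leaving out MLL-ENL dYEATS replicate 1 or 2 put the log2 fold change of Cebpe at 0.39 and 0.44, without a call.

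**Figure D4:**
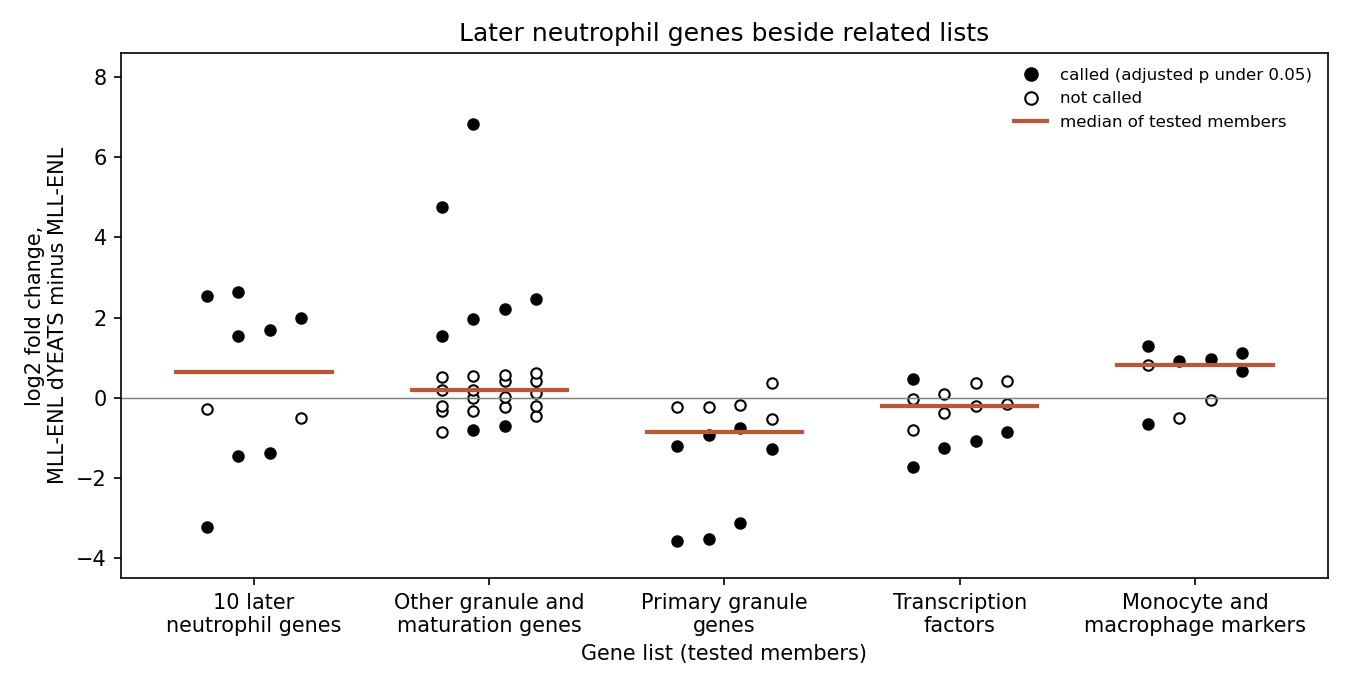
Log2 fold changes, MLL-ENL dYEATS minus MLL-ENL, of the 10 genes and of tested members of 4 related lists, with filled points for called genes, open points for the others and bars for medians. The 10 genes spread from -3.22 to 2.64 on both sides of 0, whereas the called primary granule genes all lie below it; the highest point of the second list is Fpr2, which had 0 counts in both MLL-ENL libraries, so that its fitted height has no fixed meaning.

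Partners and relatives of the members were few in these cells. Of 23 such genes, 9 were tested, 0 rose and 2 fell, Prtn3 and transferrin (Trf), the serum relative of lactoferrin. The shares over all genes tested were 7.04% called higher and 9.84% called lower. Trf averaged 17.5 CPM in MLL-ENL dYEATS and 66.8 CPM in MLL-ENL cells (log2 fold change -1.93, edgeR adjusted p = 0.00106). The metalloprotease Mmp19 averaged 83.1 CPM in MLL-ENL dYEATS and 62.8 CPM in MLL-ENL cells, its inhibitor Timp2 53.7 CPM in MLL-ENL dYEATS and 49.2 CPM in MLL-ENL cells, and neither was called (edgeR adjusted p = 0.0612 and 0.449). The deiminase Padi2, the transferrin receptor Tfrc and the endocytic receptor Lrp1 averaged 0.722, 639 and 8.20 CPM in MLL-ENL dYEATS cells, against 1.40, 620 and 12.0 CPM in MLL-ENL cells, also without a call. Each of these 5 uncalled genes was called in a fit without an MLL-ENL library, where the spread rests on the close MLL-ENL dYEATS pair. Mmp3 and Mmp14 were at 0 counts in all libraries.

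Macrophages also make Chil3, Lcn2 and Mmp9, and some of their markers moved with these genes. Of 17 monocyte and macrophage markers 9 were tested, 5 rose and 1 fell, where 7.04% of all genes tested rose and 9.84% fell. C1qa, C1qb, C1qc, Ms4a7 and Retnla were at 0 counts in all 4 libraries. The summed level of the 17 markers was 901 and 922 CPM in MLL-ENL dYEATS libraries, against 1207 and 1174 CPM in MLL-ENL libraries, most of it Ly6c2. Ly6c2 was the 1 marker that fell, with 677 CPM in MLL-ENL dYEATS and 1053 CPM in MLL-ENL cells (log2 fold change -0.64, edgeR adjusted p = 0.016). Cd68, a lysosomal protein of macrophages, averaged 21.5 CPM in MLL-ENL dYEATS and 9.94 CPM in MLL-ENL cells, and Mpeg1, which forms pores in phagosomes, 29.7 CPM in MLL-ENL dYEATS and 12.1 CPM in MLL-ENL cells. The calls of Csf1r, Ccr2, Adgre1 and Ly6c2 among these 6 each ended in at least 1 alternative. The part of such cells in the values of Chil3, Lcn2 and Mmp9 was not tested. Eosinophil, basophil and mast cell markers summed to 7.63 and 9.56 CPM in MLL-ENL dYEATS and 9.97 and 9.10 CPM in MLL-ENL libraries, with 6 of 10 at 0. Ear2, an eosinophil ribonuclease, was the 1 called of 3 tested (edgeR adjusted p = 0.0111). It had 28 and 26 counts in MLL-ENL dYEATS libraries, against 0 and 2 counts in MLL-ENL libraries. It passed the filter on low counts only through the group in which it was high, so its call is a description. The part of eosinophils, basophils and mast cells was likewise not tested. Lymphoid markers had at most 0.105 CPM in sum and erythroid markers at most 1.34 CPM.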

How the data were processed

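Per the labels' protocols, poly(A)-selected RNA was made into 4 libraries with a Swift kit. Per the submitters' processing notes, the tools were RSEM 1.3.3, STAR 2.7.8a, FastQC 0.11.8 and cutadapt 2.3, with the build GRCm38. The sources used here give no settings, annotation release or strand handling. The authors deposited expected counts, which were whole numbers, and FPKM, which they scaled by gene length and depth.

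Groups came from sample titles. Genes were kept by filterByExpr (13245), scaled by TMM and tested with edgeR 4.0.16 (glmQLFit with legacy set to true, glmQLFTest, R 4.3.3), with Benjamini-Hochberg adjustment over all of them. SE is the log2 fold change divided by the square root of F. The test was checked on simulated counts drawn with the same spread in both groups. The pairs here differ in spread, as given below, so the check does not cover that. Alternatives were RLE factors, library totals, no filter, 5 CPM in 2 libraries, DESeq2 1.42.0, limma 3.58.1 on log2 FPKM, a replicate block and each library left out. Chi-square per degree of freedom was 1.99 in the MLL-ENL dYEATS pair and 89.8 in the MLL-ENL pair; both pairs differ by more than sampling noise, and each library was counted as a replicate. Positions are from GENCODE M21 (GRCm38). Intervals and floors cover counting error only.

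All 10 members were named, and from the other lists the top 3 called genes per direction by log2 fold change with a mean of at least 1 CPM in a group; of partners and relatives, every gene at that level. Neighbours and genes said to be chosen after their values were seen lie outside this rule, and 1 gene that it takes is not reported here. Members and lists were chosen with earlier results of these data known.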

Additional observations from a re-analysis of the deposited data

How the results depend on the processing

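Under 12 alternatives the 10 members gave 117 values, none of which changed direction. In 114 the side of the threshold was kept, in 2 Camp became called lower and in 1 Mmp8 lost its call. Of the members, 5 were called higher in every alternative but 2. With at least 5 CPM in 2 libraries 3 of 7 tested were higher, since Ltf, Mmp8 and Mmp9 were not tested, and with limma on log2(FPKM + 1) 4 were higher. Leaving out a library gave 5 higher members in each case and 3 to 4 lower. Over all genes, 932 were called higher and 1303 lower. These counts were 545 and 805 with the 5 CPM minimum, the lower calls were 837 with limma on log2(FPKM + 1), and without 1 library the counts ran from 573 to 4581 higher and from 859 to 4507 lower. The highest counts were those without an MLL-ENL library. With the replicate block 5 members were higher and 3 lower, and 1435 and 1698 of all genes. Deviations of libraries with the same number correlated at -0.0677 over 13245 genes, and the labels do not say that the numbers pair libraries. Leaving out MLL-ENL replicate 1 or 2 put Tfrc at -0.18 or 0.31 and Lrp1 at -1.04 or 0.19 on the log2 scale, neither of them called in the full set, and the cause was not tested. Counting error was widest for Ltf and Mmp8.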
